A study of Mus musculus with 36 samples.

Results

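Major urinary proteins (MUPs) were examined in primary mouse hepatocytes that expressed glucokinase regulatory protein (GKRP), glucokinase (GK) or both. The family was represented by 9 genes, Mup1, Mup2, Mup3, Mup7, Mup10, Mup17, Mup18, Mup20 and Mup21, out of 52230 genes in the files. They were chosen by measured values: Mup18 was singled out for its rise with GKRP in these same cultures, and the rule sums the reads of the named genes over all libraries. Values of Mup18 with GKRP are therefore given as a description, with no test. All 9 passed the filter on low counts, which left 12177 genes in the tests.

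The data are RNA-seq of 36 primary hepatocyte cultures under 10 conditions, from 3 female mice aged 14 weeks. Untreated cultures received no vector. The other cultures received an adenoviral vector for human GKRP-446P (hP), human GKRP-446L (hL), mouse GKRP-446P (mP) or mouse GKRP-446L (mL), a vector for GK, or the GK vector together with 1 of the 4 GKRP vectors. There was no empty vector in this set, so the effect of a vector as such and that of its insert cannot be told apart. Every culture was held for 24 h at 5 mM glucose and then for 4 h at 25 mM glucose, with 10 nM dexamethasone and 10 nM insulin. The untreated and the GK condition had 2 cultures per mouse, and the other conditions had 1. Mice 1 and 2 are labelled Gckr-446L, whereas the label of mouse 3 is Gckr-446P/L, so preparation and genotype cannot be told apart for mouse 3. Each mouse is 1 preparation of hepatocytes, and the mouse is the replicate (n = 3).

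Libraries held between 3924674 and 10046158 reads. With the mouse GKRP vectors Gckr was between 8421 and 23186 CPM (reads scaled to 1000000 reads assigned to genes per culture), against 38.3 to 1425 CPM in cultures without them, where the highest value was 1 culture with the GK vector alone (mouse 3). The 11 hepatocyte markers summed to between 79552 and 126334 CPM. All 8 Kupffer cell markers had reads and summed to 42.8 to 107 CPM, the 7 endothelial markers to 49.9 to 122 CPM, and the 8 stellate cell markers to 23.7 to 147 CPM. The 6 cholangiocyte markers summed to 150 to 269 CPM in mouse 1 and to 14.5 to 35.7 CPM in mice 2 and 3.

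MUPs are small secreted lipocalins that hepatocytes release into blood and that the kidney passes into urine, where they bind and slowly release volatile pheromones. The genes form a cluster of tandem copies on mouse chromosome 4. In liver they are controlled by pulses of growth hormone through STAT5, by androgens and by glucocorticoids, and male mice make more of them than females. Mup20 encodes darcin, a male scent protein that females learn to recognise, and Mup3 is one of the more diverged members of the cluster.

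The members lay between 60066445 and 62069175 on chromosome 4 of GRCm39, all on the minus strand. Mup18 (ENSMUSG00000078674) spanned 61588409 to 61592373 and Mup10 (ENSMUSG00000078680) spanned 60534259 to 60538198. Mup3 (ENSMUSG00000066154) was annotated from 61947447 to 62005620, a span that contains Mup20 (61968464 to 61972395) on the same strand. The reference holds 22 protein-coding Mup genes and 27 Mup pseudogenes.

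Many copies are nearly identical. Over 421 coding bases of exons 2 to 5, Mup18 was identical to Mup9 and Mup19 and differed at 1 base from Mup2, Mup10, Mup11, Mup16 and Mup22. It differed at 2 bases from Mup1, at 3 from Mup7, at 4 from Mup17, at 41 from Mup20 and at 71 from each of Mup3 and Mup21. The sequence of coding exon 2 (134 bases) shows the contrast between near copies of Mup18 and the diverged members that can be told apart. It is given 5′ to 3′ on the minus strand of GRCm39, for Mup18 (chr4:61591692-61591825), Mup22 (chr4:60776847-60776980), Mup10 (chr4:60537520-60537653), Mup17 (chr4:61513430-61513563), Mup20 (chr4:61971717-61971850) and Mup3 (chr4:62005037-62005170), with bases that are unlike Mup18 in capitals.
Mup18: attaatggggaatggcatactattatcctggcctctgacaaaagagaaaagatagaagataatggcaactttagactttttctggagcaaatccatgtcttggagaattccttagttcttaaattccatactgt
Mup22: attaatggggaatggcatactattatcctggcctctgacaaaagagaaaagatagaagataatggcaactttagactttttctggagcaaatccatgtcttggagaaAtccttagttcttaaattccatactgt
Mup10: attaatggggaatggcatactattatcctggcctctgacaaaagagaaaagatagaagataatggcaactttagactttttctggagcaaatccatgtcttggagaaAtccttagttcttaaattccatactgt
Mup17: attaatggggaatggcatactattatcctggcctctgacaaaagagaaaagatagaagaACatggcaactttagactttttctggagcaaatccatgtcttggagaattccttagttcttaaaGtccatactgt
Mup20: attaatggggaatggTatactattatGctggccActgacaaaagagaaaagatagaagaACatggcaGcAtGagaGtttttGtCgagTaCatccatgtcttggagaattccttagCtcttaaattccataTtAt
Mup3: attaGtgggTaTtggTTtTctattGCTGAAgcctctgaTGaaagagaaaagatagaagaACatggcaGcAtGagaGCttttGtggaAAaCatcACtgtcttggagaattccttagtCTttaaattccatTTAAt
Mup22 and Mup10 had the same exon 2, with a single substitution from Mup18, T108A, counted from 1 at the first base of the exon. Mup17 had 3 substitutions (T60A, A61C and T124G), Mup20 had 16 and Mup3 had 33.

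The transcripts were cut into words of 31 bases to count the sequence that a gene shares with no other. Of the 905 words of Mup18, 62 (6.85%) occurred in no other gene. Mup16 held 85.6% of the words of Mup18, Mup22 held 84.4%, Mup19 held 83.3% and Mup10 held 76.4%. Mup20 held 11.5% and Mup3 held 2.21%. The share of words of their own was 7.60% for Mup7, 16.8% for Mup10, 17.2% for Mup17, 21.2% for Mup2, 30.98% for Mup1 and 35.5% for Mup20. It was 67.0% for Mup3 and 73.4% for Mup21. Reads that match several copies were divided among them by the quantification, so values of Mup18, Mup10 and Mup7 are uncertain beyond their counting error.

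The 22 Mup genes together took between 6030 and 10356 CPM, with a median of 7972 CPM over the 36 cultures. The 9 members held 26.7% of these reads. Mup22, which is not one of them, held 51.4%, and Mup22, Mup9, Mup19 and Mup16 together held 70.6%. Among the members Mup3 held 15.3% of all Mup reads, Mup10 5.38% and Mup18 4.78%, while each of the others held under 1%. Mup3 is thus the only abundant member with long sequence of its own.

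Levels were compared between genes per transcript length, as TPM. The median over 36 cultures was 1804 TPM for Mup3, 320 TPM for Mup18, 52.3 TPM for Mup17, 47.0 TPM for Mup20 and 25.1 TPM for Mup7. It was 11.6 TPM for Mup10, 5.02 TPM for Mup1, 2.29 TPM for Mup21 and 0.65 TPM for Mup2. Mup3 was above Mup18 in 33 of 36 cultures and Mup18 was above Mup17 in 31 of 36. Mup17 was above Mup20 in 19 of 36 cultures, so these 2 had no fixed order. Mup21 was above Mup2 in 22 of 36 cultures, and Mup2 was listed at 0 in 13 cultures.

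Mup18 ranged from 0 to 1963 CPM over the 36 cultures. In the 6 untreated cultures it was 221 and 0 CPM in mouse 1, 55.0 and 173 CPM in mouse 2, and 42.9 and 85.4 CPM in mouse 3. The zero allows up to 3 reads, or 0.768 CPM, a limit that covers counting error only. With hP it was 235 CPM in mouse 1, 1963 CPM in mouse 2 and 1742 CPM in mouse 3. The cultures of mice 2 and 3 with hP were the 2 highest of all 36.

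With hL Mup18 was 79.7, 101 and 544 CPM in mice 1, 2 and 3. With mP it was 127, 756 and 234 CPM, and with mL it was 321, 253 and 487 CPM. The lowest mL culture was at 253 CPM and the highest untreated culture at 221 CPM, whereas the hL and mP cultures overlapped with untreated ones. Mup18 was chosen on its rise with GKRP, and how many of all genes separate mL from untreated cultures was not counted. Mean values were 106 ± 34.6 CPM untreated, 1314 ± 940 CPM with hP, 242 ± 262 CPM with hL, 372 ± 336 CPM with mP, and in the mL cultures 354 ± 120 CPM (SD, n = 3 mice).

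With the GK vector alone Mup18 was 145 and 952 CPM in mouse 1, 35.1 and 249 CPM in mouse 2, and 292 and 384 CPM in mouse 3. With GK and hP it was 23.5, 150 and 670 CPM in mice 1, 2 and 3. With GK and hL it was 167, 154 and 12.4 CPM. With GK and mP it was 32.2, 328 and 118 CPM, and with GK and mL it was 216, 83.0 and 1423 CPM. The order of the mice was not the same from one condition to the next, and 1 culture set the mean of GK with mL (574 ± 739 CPM, SD, n = 3).

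**Figure D1:**
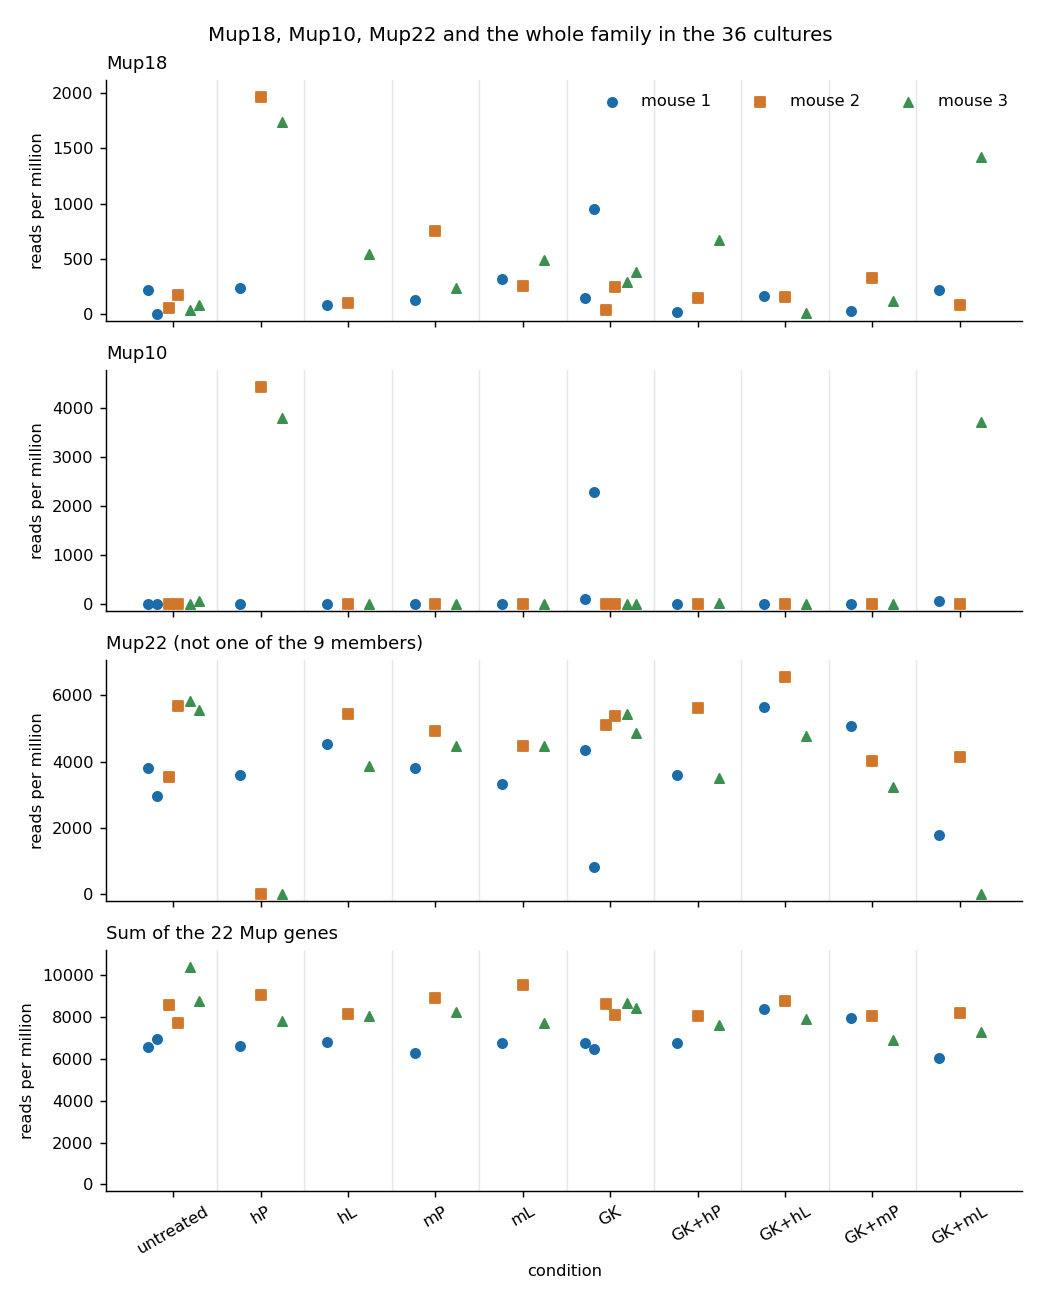
CPM (linear axis) of Mup18, Mup10, Mup22 and the sum of the 22 Mup genes in each of the 36 cultures, by condition, with a symbol and colour for each mouse. The same 4 cultures stand out high in Mup18 and Mup10 and low in Mup22, while the sum stays between 6030 and 10356 CPM.

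In the order of condition means, hP was highest for Mup18 and untreated lowest, with GK with mL, GK alone, mP, mL, GK with hP, hL, GK with mP and GK with hL between them. Neighbours in this order differed by less than the larger SD between mice. As a description, the log2 fold change of Mup18 for the 4 GKRP vectors averaged, against untreated, was 2.09 (SE 1.04), higher in 3 of 3 mice. Taken one at a time against untreated it was 3.62 (SE 1.26) for hP, 1.14 (SE 1.15) for hL, 1.84 (SE 1.17) for mP and 1.78 (SE 1.17) for mL. With GK present, adding a GKRP vector gave, on average against GK alone, -0.73 (SE 0.85), lower in 3 of 3 mice, but 0.05 without mouse 1 and -1.52 without mouse 3. The difference between these effects was -2.83 (SE 1.32). Because Mup18 was chosen on its rise with GKRP, these values carry no test.

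The other 5 averaged comparisons of Mup18 take the untreated cultures or the cultures with GKRP as 1 of their sides, so the choice of the gene bears on them too, and they are given as values. The log2 fold change for GK alone against untreated was 1.84 (SE 1.17), with higher values in 3 of 3 mice. GK alone against the average of untreated and the 4 GKRP vectors gave 0.17 (SE 0.87), higher in 1 of 3 mice. GK with GKRP against GKRP alone gave -0.98 (SE 0.57), lower in 3 of 3 mice. GKRP-446L against GKRP-446P, over human and mouse vectors with and without GK, gave -0.50 (SE 0.57). Mouse against human GKRP gave 0.10 (SE 0.57). These 5 are among the member tests counted below, but as tests of a gene chosen on these same cultures they carry no weight.

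Duplicate cultures of 1 mouse differed widely in Mup18. In the 6 pairs of duplicate cultures the log2 ratio of Mup18, with 1 CPM added, had a size of 0.39 to 7.80, with a median of 2.17. For Mup10 the size was 0.18 to 4.44 (median 0.64) and for Mup2 it was 0.00 to 2.85 (median 1.02). For Mup3 it was 0.00 to 2.08 (median 0.08), for Mup17 0.03 to 0.43 (median 0.19) and for Mup20 0.02 to 0.51 (median 0.20). The sum of the 22 Mup genes differed by 0.04 to 0.24 between duplicates, with a median of 0.09. Mup18 had the largest median of the 9 members.

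**Figure D2:**
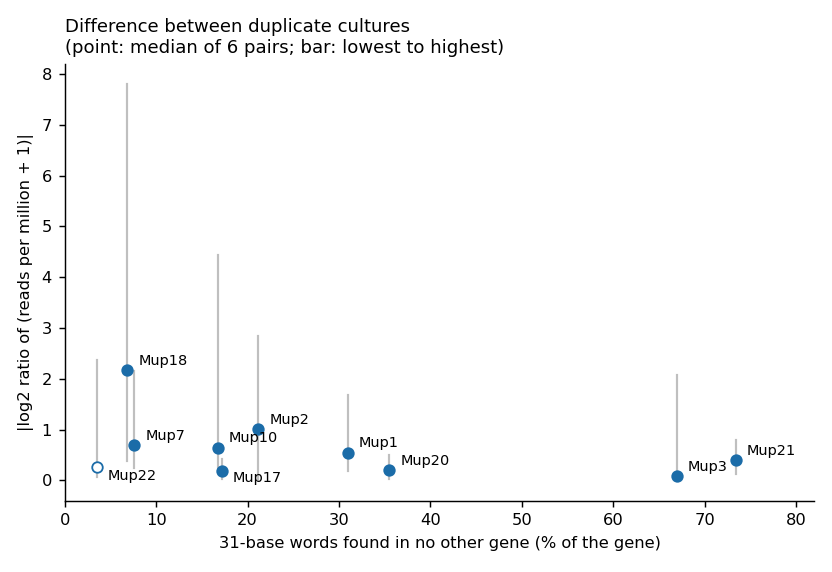
Size of the log2 ratio between the 2 cultures of a mouse (median, lowest and highest of 6 pairs, with 1 CPM added) against the share of 31-base words that no other gene holds, for the 9 members (filled) and Mup22 (open). Mup18, with 6.85% of words of its own, had a median of 2.17, and Mup3, with 67.0%, a median of 0.08. The medians did not follow the share throughout: Mup22 (3.53%) had 0.26, Mup17 (17.2%) had 0.19 and Mup21 (73.4%) had 0.41.

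Mup10, a near copy of Mup22, had the widest range of the members. It was 4432 CPM with hP in mouse 2, 3799 CPM with hP in mouse 3, 3711 CPM with GK and mL in mouse 3, and 2301 CPM in the second culture of mouse 1 with GK alone. In the other 32 cultures it was 1.5 to 105 CPM, with a median of 6.47 CPM. The first culture of mouse 1 with GK alone had 105 CPM, the highest of these 32. Other values above the bulk were 68.7 CPM with GK and mL in mouse 1, 64.8 CPM in an untreated culture of mouse 3 and 31.04 CPM with GK and hP in mouse 3.

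These 4 cultures were also the 4 lowest in Mup22. Mup22 was listed at 0 in both hP cultures and in GK with mL of mouse 3, which allows up to 0.412, 0.504 and 0.577 CPM, and it was 840 CPM in the second GK culture of mouse 1. In the other 32 cultures it was 1793 to 6549 CPM. Mup18 was 952 to 1963 CPM in the 4 cultures and 0 to 756 CPM in the other 32. The cultures were split after seeing the data, and how many of all genes separate them in this way was not counted. The sum of Mup10, Mup18 and Mup22 was 4094 to 6395 CPM in the 4 cultures and 2077 to 6710 CPM in the others, and the sum of the 22 Mup genes was 6444 to 9013 CPM against 6030 to 10356 CPM. Mup3 was 996 to 1385 CPM in the 4 cultures, within its range elsewhere. The 4 libraries held 5197865 to 7277686 reads assigned to genes, within the range of the others. The coefficient of variation over 36 cultures was 285% for Mup10, 132% for Mup18, 41.7% for Mup22, 21.3% for the sum of these 3 genes and 12.6% for the 22 Mup genes. The part of read division among near copies in the values of Mup10, Mup18 and Mup22 was not tested.

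**Figure D3:**
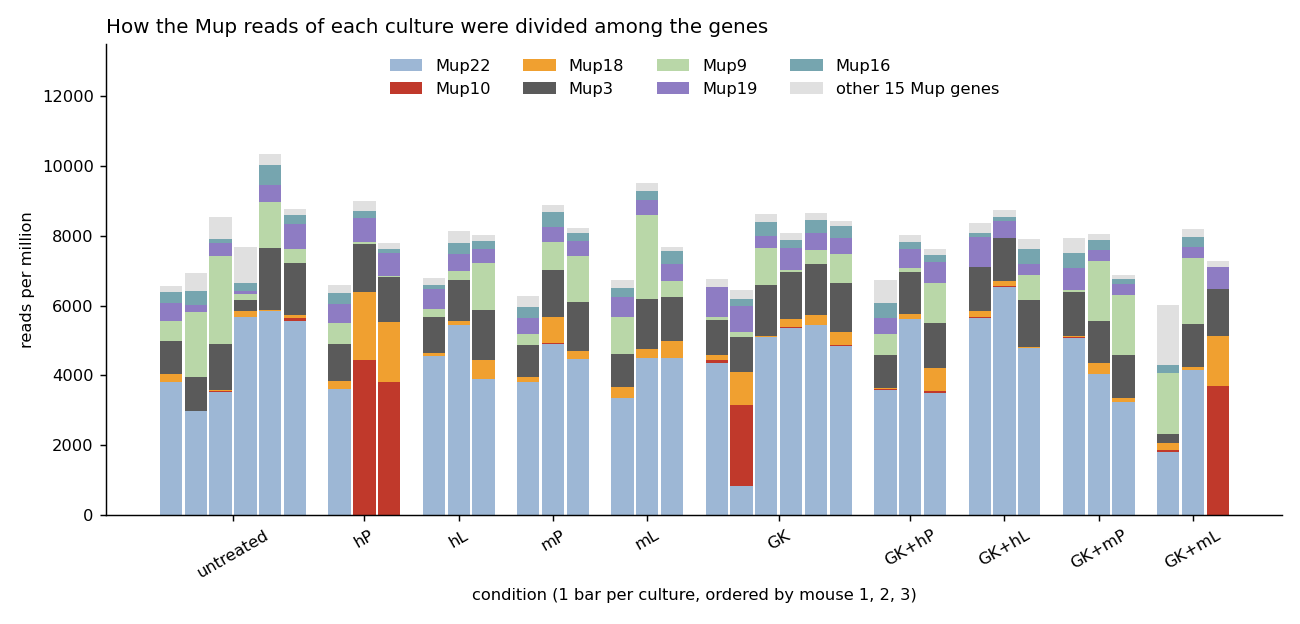
CPM of each Mup gene stacked for every culture (1 bar each, ordered by mouse within a condition). The height of the bars, the sum of the 22 genes, stays between 6030 and 10356 CPM, while in 4 cultures Mup22 is low and Mup10 is 2301 to 4432 CPM.

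Without these 4 cultures, a choice made after seeing the data, hP was left with the culture of mouse 1 alone. The log2 fold change of Mup18 for the 4 GKRP vectors against untreated was then 1.45 rather than 2.09. The sum of the 9 members gave 0.23 rather than 0.73. With all cultures, the sum of the 22 Mup genes gave -0.05 (SE 0.17) for the same comparison. The sum of the 9 members was 1340 ± 410 CPM untreated, 5407 ± 3481 CPM with hP, and 1568 to 1703 CPM on average with the other 3 GKRP vectors (SD, n = 3 mice).

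For the effect of GK alone, the sum of the 9 members gave a log2 fold change of 0.75 (SE 0.56) against untreated and the 22 genes gave -0.02 (SE 0.21). GKRP-446L against GKRP-446P gave -0.22 (SE 0.28) for the 9 members and 0.04 (SE 0.11) for the 22 genes. Mouse against human GKRP gave -0.13 (SE 0.28) and 0.02 (SE 0.11). Since these are sums over chosen genes they are given with no test. By CPM the log2 fold change of the 22 genes was between -0.06 and 0.04 in the 8 averaged comparisons. In the fit with an offset for the deposited transcript lengths, the summed rows took only the library scaling of that fit, with no length of the Mup genes. There the 22 genes gave 0.41 for GK alone against untreated and 0.28 for GK alone against the 5 conditions without its vector. They gave 0.16 for the 4 GKRP vectors against untreated, -0.36 when GKRP was added to GK and -0.53 for the interaction. The even total was thus seen by CPM and not with that library scaling, and a total adjusted for Mup length was not computed.

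**Figure D4:**
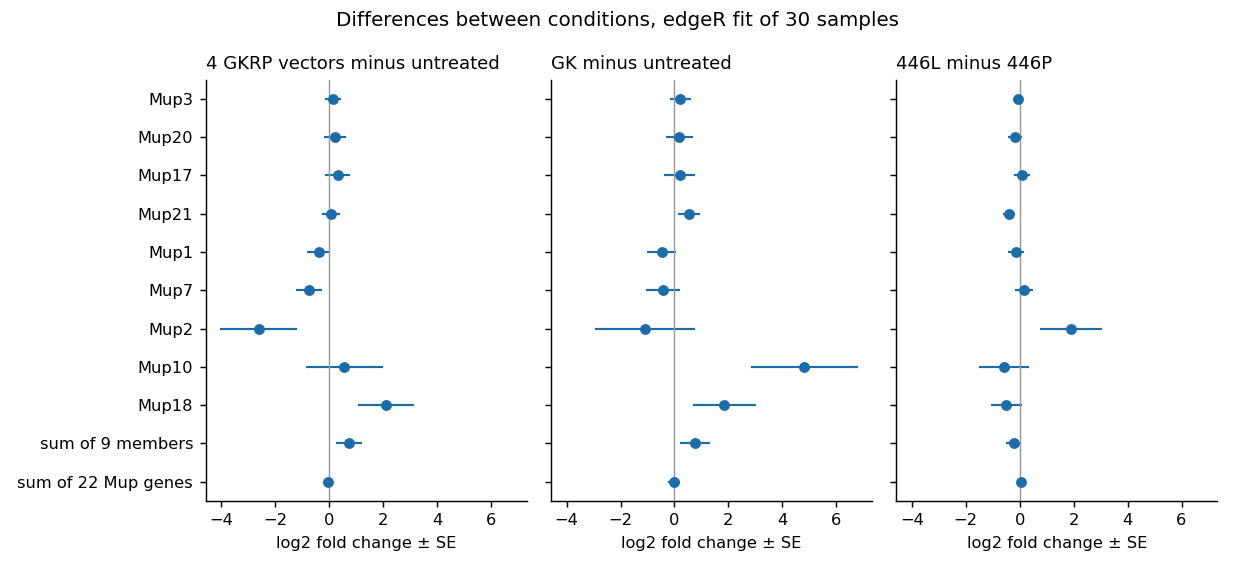
Log2 fold change with its standard error from the edgeR fit of 30 samples, for the 9 members, their sum and the sum of the 22 Mup genes, in 3 comparisons. The values of Mup2, Mup10 and Mup18 reach from -2.62 to 4.81 with standard errors over 0.5, while the sum of the 22 genes lies between -0.05 and 0.04.

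Over the 8 averaged comparisons, edgeR's quasi-likelihood test called 1 of 69 member tests (adjusted p under 0.05 and a change of 1.3-fold up or 0.7-fold down). Of the 69, 5 were tests of Mup18, which was chosen on these same cultures, so those 5 carry no weight. Mup10 was called for GK alone against the average of the 5 conditions without the GK vector (untreated and the 4 GKRP vectors, here called endogenous GK), with a log2 fold change of 4.36 (SE 1.09, adjusted p = 0.0435). In the same comparison 1.19% of all genes tested were called. Mup10 was higher in only 1 of 3 mice, and its mean CPM was 483 with GK alone against 555 over the 5 conditions, since hP was among them. Without mouse 1, 1 of whose GK cultures was at 2301 CPM, the log2 fold change was -1.51 (adjusted p = 0.909), and with the 5 conditions fitted as 1 group it was -0.24 (adjusted p = 1). With the mouse as a replicate block it was 4.60 (adjusted p = 0.0762). Without the 4 cultures low in Mup22 it was 2.95, with hP then left with mouse 1 alone. Leaving out mouse 2 or mouse 3 also ended the call (adjusted p = 0.217 and 0.227, edgeR).

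No member was called in the other 7 averaged comparisons. Of all genes tested, 0.00821% were called for GK alone against untreated, 1.89% for the 4 GKRP vectors against untreated, 1.61% for GK with any of the 4 GKRP vectors against GK alone and 0.0164% for GK with GKRP against GKRP alone. The share was 0.00821% for 446L against 446P, 0.00821% for mouse against human GKRP and 0.0% for the interaction of GKRP with GK. At an unadjusted p under 0.05, 4 of the 69 member tests passed, all of them of Mup10, where 5.27% of the tests of all genes passed. The lowest adjusted p among members that were not called was 0.0814, for Mup10 when the 4 GKRP vectors joined GK, against GK alone (log2 fold change -4.06, SE 1.17, edgeR). Its direction turned without mouse 1, to 1.69, and it was -6.18 without mouse 3. DESeq2 called 2 of the 69, both of Mup10. The share of all genes that DESeq2 called is not given, here or below. The edgeR shares cannot stand in for it.

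In the 8 comparisons of single GKRP vectors, edgeR called 0 of 64 member tests, and 0.942% of the tests of all genes were called. At an unadjusted p under 0.05, 5 passed, 4 of Mup10 and 1 of Mup2, where 7.39% passed among all genes. DESeq2 called 3 of the 64, all of Mup10, a count not to be set against the 0.942% of edgeR. Mup2 with hP was 0, 0.53 and 0 CPM in mice 1, 2 and 3, against 0 to 35.0 CPM in the untreated cultures (log2 fold change -5.64, SE 2.70, adjusted p = 0.817 by edgeR). With so few reads, and with 13 cultures at 0, Mup2 could not be placed in an order of conditions.

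Mup3 was the most even of the abundant members. It was 925 to 1757 CPM in 34 cultures and 240 and 307 CPM in the other 2. Its condition means ran from 939 ± 607 CPM with GK and mL to 1283 ± 69.0 CPM with GK and hL (SD, n = 3). The log2 fold change was 0.14 (SE 0.31) for the 4 GKRP vectors against untreated, 0.22 (SE 0.39) for GK alone against untreated and -0.05 (SE 0.19) for 446L against 446P, with adjusted p = 1 in each by edgeR. The 2 low cultures were the second untreated culture of mouse 2 and GK with mL of mouse 1. Their duplicate or neighbouring cultures were not low: the first untreated culture of mouse 2 had 1305 CPM.

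In these 2 cultures Mup7 was at its highest, at 48.6 and 73.6 CPM, against 2.93 to 31.1 CPM in the other 34. Outside the members, Mup13 was 519.5 and 1072 CPM there (at most 17.5 CPM elsewhere), Mup8 was 332 and 336 CPM (at most 16.6 CPM elsewhere), and Mup19 was 0.54 and 74.6 CPM (at least 210 CPM elsewhere). These values of Mup13, Mup8 and Mup19 are given from low to high, not by culture. The 2 cultures were set apart by their low Mup3 after seeing the data. How many of all genes separate these 2 cultures from the other 34 was not counted. The sum of the 22 Mup genes was 7689 CPM in the culture of mouse 2 and 6030 CPM in that of mouse 1. For Mup7 the 4 GKRP vectors against untreated gave a log2 fold change of -0.75 (SE 0.48, adjusted p = 0.789), lower in 3 of 3 mice. Without mouse 1 it was -0.96 (adjusted p = 0.0232 by edgeR), and that call has 2 mice, 1 of which holds the untreated culture at 48.6 CPM.

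Mup17 and Mup20 differed between mice. Mup17 had a median of 55.6 CPM over the 12 cultures of mouse 1 (34.02 to 82.4), 38.5 CPM in mouse 2 (30.3 to 54.2) and 22.3 CPM in mouse 3 (12.5 to 27.9). Every culture of mouse 1 was above every culture of mouse 3, as was the case for 3.63% of all genes tested. Mup20 had a median of 55.5 CPM in mouse 1 (40.6 to 93.9), 24.9 CPM in mouse 2 (22.1 to 29.4) and 29.99 CPM in mouse 3 (22.6 to 39.3). Every culture of mouse 1 was above every culture of the other mice, as was the case for 3.07% of all genes. Mup3 had the opposite order to Mup17, with medians of 984, 1271 and 1377 CPM in mice 1, 2 and 3.

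**Figure D5:**
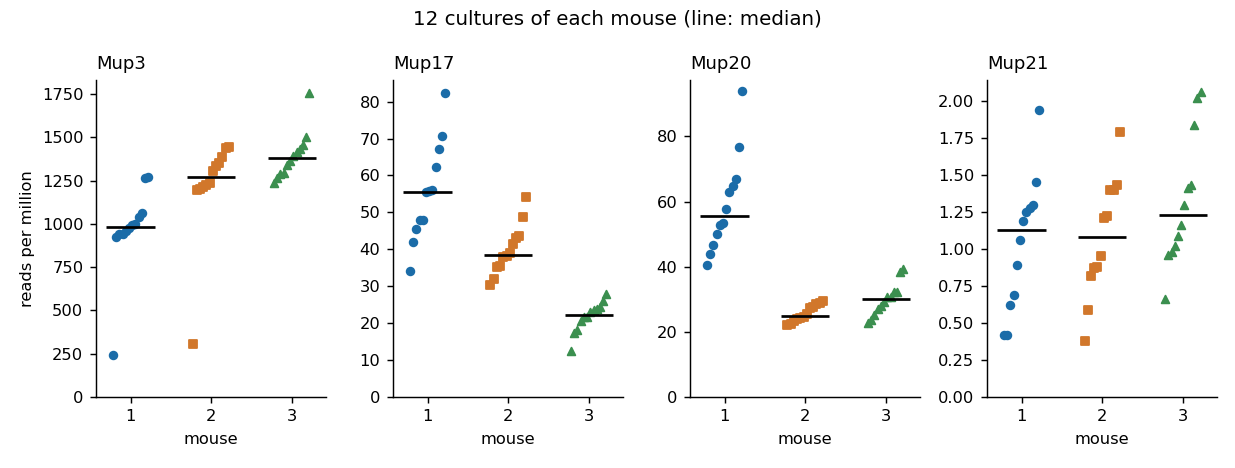
CPM (axes from 0) of Mup3, Mup17, Mup20 and Mup21 in the 12 cultures of each mouse, sorted by value, with the median as a line. Mup17 and Mup20 were highest in mouse 1 (medians 55.6 and 55.5 CPM), Mup3 was lowest there (984 CPM), and Mup21 had a median of 1.13 CPM in mouse 1 and 1.23 CPM in mouse 3.

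The sum of squares of log2(CPM + 1) over the 30 samples was divided between mice and conditions. The mice took 79.5% for Mup17 and 82.6% for Mup20, and the conditions took 6.83% and 7.20%. Without mouse 3 the mice took 38.1% and the conditions 43.2% for Mup17, and without mouse 1 they took 19.3% and 48.9% for Mup20. Fewer samples over the same 10 conditions raise the share of the conditions by themselves. Shares with a mouse left out can therefore not be set directly against those of 30 samples. With the authors' TPM in place of CPM the mice took 29.5% for Mup17 and 35.4% for Mup20, and the conditions took 25.5% and 23.0%. The median over all genes tested was 29.97% between mice and 25.6% between conditions. For Mup18 the mice took 7.64%, the conditions 39.4% and the rest, within conditions and mice, 53.0%. For Mup10 these shares were 4.00%, 42.4% and 53.6%. Of all genes tested, 20.7% had a share between conditions at or above that of Mup18, and 16.4% at or above that of Mup10. For the sum of the 22 Mup genes the mice took 55.9%, the conditions 11.4% and the rest 32.7%, but without mouse 1 the mice took 19.2% and the conditions 39.7%. With the authors' TPM the mice took 22.95% and the conditions 8.1% for this sum. The cholangiocyte markers were higher in mouse 1 too, as were the Kupffer cell markers (90.5 to 107 CPM against 42.8 to 84.5 CPM), and the hepatocyte markers were lower (79552 to 94053 CPM against 95073 to 126334 CPM). The stellate cell markers were lower in mouse 1 (23.7 to 48.6 CPM against 72.1 to 147 CPM), and the endothelial markers were highest in mouse 3 (103 to 122 CPM against 49.9 to 90.7 CPM). The part of other cells in the values of Mup3, Mup17 and Mup20 was not tested, and in such bulk samples fewer cells of a type and less RNA per cell cannot be told apart.

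Mup17 and Mup20 were not called in any comparison of vectors. For the 4 GKRP vectors against untreated the log2 fold change was 0.31 (SE 0.46) for Mup17 and 0.22 (SE 0.41) for Mup20, and for GK alone against untreated it was 0.19 (SE 0.57) and 0.18 (SE 0.51). Mup20 was higher in 3 of 3 mice in both comparisons, with adjusted p = 1 in each. For 446L against 446P, Mup20 gave -0.16 (SE 0.26), lower in 3 of 3 mice, and Mup17 gave 0.08 (SE 0.29), with adjusted p = 1 for both by edgeR.

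Mup1 and Mup21 were near the lower end of detection. Mup1 was 0.55 to 7.62 CPM and Mup21 was 0.38 to 2.06 CPM over the 36 cultures. For mouse against human GKRP, Mup1 gave -0.58 (SE 0.30, adjusted p = 1), lower in 3 of 3 mice. For 446L against 446P, Mup21 gave -0.40 (SE 0.23, adjusted p = 1), lower in 3 of 3 mice. For GK alone against untreated Mup21 gave 0.55 (SE 0.41, adjusted p = 1 by edgeR), higher in 3 of 3 mice. None of these passed the test at this depth.

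The genes that control MUPs in liver were counted from fixed lists. Of 16 genes of growth hormone signalling, among them the receptor Ghr, Stat5b and the feedback inhibitors Socs2 and Cish, 15 were tested and edgeR called 0 in the 8 averaged comparisons. At an unadjusted p under 0.05, 11 of their 120 tests passed, where 5.27% of the tests of all genes did, and DESeq2 called 0. Their median log2 fold change lay between -0.19 and 0.21 over the 8 comparisons, and that of all genes between -0.003 and 0.010. Ghr itself had condition means of 47.5 to 52.5 CPM.

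Of 20 transcription factors of liver gene control, such as Hnf4a, Cux2, Bcl6 and the glucocorticoid receptor Nr3c1, 18 were tested. edgeR called 2 of their 144 tests and DESeq2 called 3, and 17 passed at an unadjusted p under 0.05. Their median log2 fold change lay between -0.12 and 0.08 over the 8 comparisons.

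Other gene groups bearing on the family were not called by edgeR. Of 20 male-biased liver genes, which share with MUPs a higher level in males, 12 were tested and 0 of 96 tests were called, with 8 at an unadjusted p under 0.05 and 2 called by DESeq2. Of 20 female-biased liver genes 19 were tested, and 0 of 152 tests were called by edgeR or DESeq2, with 0 at an unadjusted p under 0.05. Of 11 genes of other lipocalins and a fatty acid binding protein, 9 were tested and 0 of 72 tests were called by edgeR or DESeq2, with 1 at an unadjusted p under 0.05. All 20 secreted hepatocyte proteins, such as albumin (Alb) and transferrin (Trf), were tested and 0 of 160 tests were called by edgeR or DESeq2, with 0 at an unadjusted p under 0.05. Their median log2 fold change lay between 0.00 and 0.05.

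The 5 genes outside the family whose log2 CPM was most like that of Mup18 over the 30 samples included Gm11518 (Pearson r = 0.67), Stx2 (0.61), 2610005L07Rik (0.58) and Ttll4 (0.57). These samples share libraries and mice, and the values are a description. Within the family r was 0.58 for Mup10 and -0.61 for Mup22, which share sequence with Mup18. By ranks (Spearman rho) the values were weaker, 0.31 for Mup10 and -0.42 for Mup22. For the sum of the 9 members the 5 most alike included Lrrc57 (0.64), Gorab (0.61), Zfp677 (0.58) and Sh2d5 (0.56). Pearson r with this sum was 0.83 for Mup10, which is part of it, and -0.86 for Mup22. By ranks it was 0.49 for Mup10 and only -0.13 for Mup22.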

How the data were processed

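RNA from 36 hepatocyte cultures was sequenced, and per the labels the authors quantified it with Salmon 1.4.0. The methods name Gencode M26 on GRCm39 as reference. The deposited files list 139225 transcripts, each with expected counts (estimated reads, not normalized), TPM as computed by the authors within the library, and transcript lengths. Salmon divides reads that match several transcripts among them by an estimate. Replicates were not pooled.

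Transcripts were matched to genes by Ensembl identifier with Gencode M39 (98.8% matched), and the expected counts of each gene were added up and rounded. CPM scales each culture to 1000000 reads assigned to genes. Word and exon sequences come from Gencode M39, in which 47 of the 76 Mup transcripts have the deposited length. Protein sequences, Gencode M26 sequences and promoter motifs were not used here. The 2 cultures of a mouse in a condition were summed, giving 30 samples. They were fitted with edgeR 4.0.16 (R 4.3.3; glmQLFit, glmQLFTest) with 10 conditions, TMM factors of 0.901 to 1.09 and filterByExpr, with Benjamini-Hochberg adjustment over 12177 genes. A call needed an adjusted p under 0.05 and a change to 1.3-fold or above, or to 0.7-fold or below. The standard error is the log2 fold change divided by the square root of F. The sums of Mup genes were added as rows outside the adjustment. Each depth given includes counting error only, as does each limit for a count of 0 (3 reads).

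Labels give the mouse of each culture, which pairs the samples: the mean correlation of deviations from condition means was 0.223 within a mouse and -0.149 across mice, with 82.2% of 135 same-mouse pairs over 0.1. The main model has no mouse term. On simulated data for GK alone against untreated (12177 genes, 100 changed at each fold) the fit called 39% of genes changed 2-fold and 76% of those changed 4-fold, with 3 calls of unchanged genes.

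Alternatives were RLE scaling, DESeq2 1.42.0, 2 other filters, a mouse block, a fit of single cultures, each mouse left out, a length offset, 6 groups, and single cultures left out. The named genes are the 9 members, list members called in a comparison (at most 4 a list), and the 5 genes most like Mup18 and the member sum. Some genes that this rule selects are not reported here. Members, lists and rules were chosen with earlier results of these data known.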

Additional observations from a re-analysis of the deposited data

Results flagged for a closer look

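3 of 18 sets of 6 cultures (9 members, untreated or GK alone) held a culture whose gap to the nearest other exceeded the 95% limit of Dixon's test, which chance alone passes in about 1 set in 20. Mup10 was 2301 CPM in 1 culture of mouse 1 with GK alone, where the next highest of the 6 was 105 CPM. Mup10 was 64.8 CPM in 1 untreated culture of mouse 3, where the next was 7.31 CPM. Mup1 was 7.11 CPM in the same untreated culture of mouse 3, where the next was 3.87 CPM. The culture with 2301 CPM of Mup10 was also the lowest of the 6 in Mup22 (840 CPM) and the highest in Mup18 (952 CPM).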

How the results depend on the processing

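For GK alone against the 5 conditions of endogenous GK, the number of members called was 1, and it became 0 with the mouse as a replicate block, with the transcript length offset, with 6 groups, and without the 4 cultures low in Mup22 (log2 fold change of Mup10 of 4.60, 4.60, -0.24 and 2.95), and 0 to 0 with each mouse left out in turn (log2 fold change -1.51 to 5.32). Mup10 was reversed to -1.51 without mouse 1. It kept the call under RLE, both filters, each culture as a sample, DESeq2 and without the GK culture high in Gckr or the 2 cultures low in Mup3. For the 4 GKRP vectors against untreated, 0 members became 0 to 1 (Mup7) with each mouse left out. For GK with any of the 4 GKRP vectors against GK alone, 0 became 1 (Mup10) with each culture as a sample and 1 with DESeq2, and its log2 fold change ran from -6.18 to 1.69 with each mouse left out. For single GKRP vectors, 0 became 1 with each culture as a sample and 3 with DESeq2, all of Mup10. With the sum of all 22 Mup genes in place of the 9 members, the log2 fold change was -0.02 for GK alone against untreated (0.75 before), -0.05 for the 4 GKRP vectors against untreated (0.73 before) and -0.01 for the interaction (-1.07 before). With each mouse left out, the sum of the 9 members ran from 0.36 to 1.11 for GK alone against untreated and from 0.39 to 0.89 for the 4 GKRP vectors against untreated. The share of Mup18 variation was 0.68% to 9.11% between mice and 49.5% to 60.3% between conditions with each mouse left out. Fewer samples over the same 10 conditions raise the share between conditions by themselves, so this range cannot be set directly against the 39.4% of all 30 samples. The replicate block changed no other call of a member. Leaving out the cultures low in Mup22 or in Mup3 was chosen after seeing the data. The cause of these changes was not tested. Depth limits Mup1 and Mup21, which lay near a few CPM or below. Mup2 had a median of 0.40 CPM with 13 cultures at 0, but its highest culture was at 37.4 CPM. The part of read division among near copies in its values was not tested.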
